A study of Mus musculus with 2 samples.

Results

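Vwf-negative endothelial cells of the mouse lung were the lining cells of blood vessels in which no transcript of Vwf, the gene of von Willebrand factor, was counted. They were selected on transcript counts, as unique molecular identifiers (UMIs), from both deposited libraries: at most 10% of a cell's UMIs on mitochondrial genes, at least 1 UMI of at least 3 of the 7 endothelial genes Pecam1, Cdh5, Cldn5, Egfl7, Ramp2, Calcrl and Tie1, and 0 UMIs of Ptprc, Prox1, Mmrn1, Lamp3 and Vwf. The rule took 295 of the 15453 deposited cells, 198 of the control and 97 of the fibrosis library. Within this set, cells with at least 1 UMI of Car4, the gene of the membrane-bound carbonic anhydrase 4, were set against cells with 0.

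The series asked what a mouse lung holds 14 days after a mineral particle has entered it. All mice were C57Bl/6J males, 3 months old, dosed through the trachea with 100 µg of either TiO2, a particle that serves as a control, or crocidolite asbestos, a fibre known to cause lung fibrosis. Both particles are named for each mouse without saying which was given to which, and the group names control and fibrosis are those of the labels. Each library came from 1 mouse, so that no difference below has a replicate check and no test between the libraries could be made. Whole lungs were digested and cells were captured on a Chromium controller (10x Genomics, V2 reagents for 3′ ends), and the labels name no sort for endothelial cells.

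The capillaries of the alveolus are lined by 2 kinds of endothelial cell that differ in shape and in transcripts. Large, thin Car4-high cells, also called aerocytes, spread over the alveolar wall where gas is exchanged, carry the endothelin receptor Ednrb and secrete apelin. General capillary cells, marked by Gpihbp1, Plvap, the apelin receptor Aplnr and Kit, regulate vascular tone and act as the progenitors of the alveolar capillary bed, while Vwf is high in larger arteries and veins and low in capillaries.

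The libraries held 8280 control and 7173 fibrosis cells with 36632591 and 38090308 UMIs, and no deposited cell held fewer than 1460 and 1915 UMIs. Of these, 254 and 228 cells lay above the mitochondrial limit, and 8026 and 6945 were kept. The Vwf-negative endothelial cells held 468418 UMIs in control and 327832 in fibrosis, with 1462 to 8785 UMIs per control cell (median 2050) and 1928 to 37762 per fibrosis cell (median 2516). Levels below are summed UMIs of a set of cells per 1000000 UMIs (CPM), and every 95% interval covers counting error only, not the spread between mice. The libraries shared 89 cell barcodes overall and none between their Vwf-negative endothelial cells.

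The selected cells carried the endothelial markers in both libraries. Cldn5, a tight junction gene, had a UMI in 194 of 198 control cells (98.0%) and 94 of 97 fibrosis cells (96.9%). Cdh5, the gene of the endothelial cadherin, had one in 189 and 90 cells, and Calcrl, a receptor for adrenomedullin, in 185 and 92. These 3 genes belong to the rule and describe the choice. Kdr, the main receptor for vascular endothelial growth factor (VEGF), was not used by the rule and had a UMI in 164 of 198 control cells (82.8%) and 69 of 97 fibrosis cells (71.1%), against 1.94% and 2.78% of the B cells of the same libraries. B cells with several endothelial genes of the rule had been left out, which may lower their share. Kdr was carried by 147 of 157 Car4-positive control cells and 60 of 62 Car4-positive fibrosis cells, but by 17 of 41 (41.5%) and 9 of 35 (25.7%) Car4-negative ones. Kdr was thus more frequent on the Car4-positive side. Vwf-positive endothelial cells had it in 21 of 61 (34.4%) control and 32 of 71 (45.1%) fibrosis cells. The Kdr share therefore does not measure how well the label held on the Car4-negative side.

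Near the edges of the rule the cells looked different. Cells that met it except for having only 2 of the 7 endothelial genes numbered 46 and 32, of which 3 and 2 had a Kdr UMI and 4 and 2 a Car4 UMI. Just inside, 8 control and 4 fibrosis cells had 3 of the 7 genes, and of these 2 and 1 had a Kdr UMI and none a Car4 UMI. The 165 control and 83 fibrosis cells with 6 or 7 of the genes held 142 and 57 of the Car4-positive cells. Endothelial cells with exactly 1 Vwf UMI numbered 14 and 7, and 3 and 2 of them had a Car4 UMI. With 2 or more Vwf UMIs there were 47 and 64 cells, with Car4 in 3 and 1.

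Some cells carried transcripts of other cell types although Ptprc, the pan-leukocyte gene, was 0 by the rule. More than 2 UMIs of a panel of 19 leukocyte genes were present in 43 of the 198 control cells and 33 of the 97 fibrosis cells. On the Car4-positive side this was 20 and 19 cells, and on the Car4-negative side 23 of 41 and 14 of 35. Of the control cells with only 3 or 4 endothelial genes, 13 of 14 were over this limit, and in fibrosis 7 of 7. One fibrosis cell, with 37762 UMIs, held 11.5% of all UMIs of its library's set and 26.2% of those of the Car4-negative side, and it carried 155 UMIs of the mesothelial gene Msln, 228 of the fibroblast gene Dcn, and 0 of Cdh5 and Cldn5. The shares, the Car4 comparison, the comparison with Vwf-positive cells and that between the libraries are therefore also given for the cells with at most 2 UMIs of the 19 leukocyte genes and at most 2 of 22 stromal genes, called screened cells below, a limit chosen after the data had been seen: 155 control cells, 137 of them Car4-positive, and 64 fibrosis cells, 43 of them Car4-positive.

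The genes that the split turned on lie apart in the genome (GRCm38, GENCODE M21). Car4 (ENSMUSG00000000805) lies at chr11:84957786-84966044 on the plus strand and Tbx2 (ENSMUSG00000000093) on the same chromosome at chr11:85832551-85841948. Ednrb (ENSMUSG00000022122) lies at chr14:103814625-103844402, Apln (ENSMUSG00000037010) at chrX:48025146-48034853, Fibin (ENSMUSG00000074971) at chr2:110360917-110363183 and Kdr (ENSMUSG00000062960) at chr5:75932827-75978458, all on the minus strand. Of the genes of the other side, Gpihbp1 (ENSMUSG00000022579) lies at chr15:75596628-75599481 on the plus strand and Plvap (ENSMUSG00000034845) at chr8:71497765-71511752 on the minus strand.

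The promoters of 3 genes of the Car4-positive side and 1 of the Car4-negative side are shown, because Car4 set the split, Ednrb and Apln were the receptor and the ligand counted almost wholly beside it, and Cxcl12 ranked first among the genes lower beside it. Each is the stretch of 250 bases before the RefSeq gene start on GRCm38.p6, 5′ to 3′ on the gene's strand: Car4 chr11:84957504-84957753, Ednrb chr14:103843702-103843951, Apln chrX:48034854-48035103 and Cxcl12 chr6:117168285-117168534. The capitals mark a pair of overlapping matches, 1 on each strand, to CCGGAA, a core of sites bound by ETS family factors.
Car4: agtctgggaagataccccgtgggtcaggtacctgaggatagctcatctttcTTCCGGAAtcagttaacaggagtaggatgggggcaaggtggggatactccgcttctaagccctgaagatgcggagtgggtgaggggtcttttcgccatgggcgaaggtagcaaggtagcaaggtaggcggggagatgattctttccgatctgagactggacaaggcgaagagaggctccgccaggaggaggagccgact
Ednrb: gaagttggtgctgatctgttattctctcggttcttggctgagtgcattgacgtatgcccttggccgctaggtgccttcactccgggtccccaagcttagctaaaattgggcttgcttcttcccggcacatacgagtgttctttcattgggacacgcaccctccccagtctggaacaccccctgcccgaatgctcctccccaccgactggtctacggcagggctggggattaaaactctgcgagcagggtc
Apln: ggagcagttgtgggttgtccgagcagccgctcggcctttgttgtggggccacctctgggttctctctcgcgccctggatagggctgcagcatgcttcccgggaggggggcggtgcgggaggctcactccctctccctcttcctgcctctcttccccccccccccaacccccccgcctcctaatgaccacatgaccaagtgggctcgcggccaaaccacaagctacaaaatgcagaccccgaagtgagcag
Cxcl12: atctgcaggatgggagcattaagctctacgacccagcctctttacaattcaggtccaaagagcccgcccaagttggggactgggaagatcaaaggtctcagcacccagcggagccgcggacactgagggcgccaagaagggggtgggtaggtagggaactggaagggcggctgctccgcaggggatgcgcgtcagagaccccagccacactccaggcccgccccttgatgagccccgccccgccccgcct
The bases were 56.4% G or C in the Car4 stretch, 56.8% in Ednrb, 65.2% in Apln and 64.4% in Cxcl12, with 11, 11, 12 and 14 CpG pairs. On both strands, CCGGAA was found in 3952 of the 32851 RefSeq mouse promoters of this length (12.03%). Counted by gene, with a match in any promoter of the gene, it was found in 3674 of 27025 genes (13.59%). Counted the same way, it was found in Car4, Kdr, Kitl and Pmp22 among the 14 genes with a promoter entry out of Car4 and the 16 genes of the Car4 capillary list described below. GGTGTG, a core of sites bound by T-box factors such as Tbx2, was found in 5347 promoters (16.3%) and 4952 genes (18.32%), and in Cyp4b1 alone among those 14. Among 12 general capillary genes, 5 had an entry, of which none held CCGGAA and Hilpda held GGTGTG. A match is a description of the letters and not a bound site.

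Car4 was counted in most Vwf-negative endothelial cells of both libraries. At least 1 UMI was present in 157 of 198 control cells (79.3%, exact Clopper-Pearson 95% interval 73.0 to 84.7) and in 62 of 97 fibrosis cells (63.9%, 53.5 to 73.4). After each cell was thinned to 1400 UMIs the shares were 75.3% and 55.7%. B cells, which should lack Car4, gave 42 of 1030 (4.08%) and 28 of 612 (4.58%) at median depths of 2010 and 2922 UMIs, and Vwf-positive endothelial cells gave 6 of 61 (9.84%) and 3 of 71 (4.23%) at 2510 and 3477 UMIs. The Car4 share of the Vwf-negative cells lay far above both, although the B cells had been chosen for few endothelial genes of the rule. In screened cells Car4 was present in 137 of 155 control cells (88.4%, 82.3 to 93.0) and 43 of 64 fibrosis cells (67.2%, 54.3 to 78.4). The intervals of the screened shares did not overlap and those over all cells did, both for counting error only. Exposure, mouse and library cannot be told apart in this gap, with 1 mouse on each side.

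The number of Car4 UMIs per cell was spread widely. In the control library 41 cells had 0, 12 had 1, 7 had 2, 86 had 3 to 9 and 52 had 10 or more, up to 26. In the fibrosis library the same classes held 35, 7, 6, 31 and 18 cells, up to 18. Among Car4-positive cells the median was 7 UMIs in control and 6 in fibrosis, in cells of unequal depth. Car4 in the positive cells stood at 3355 CPM in control (3171 to 3547) and 2309 CPM in fibrosis (2094 to 2539). After thinning to 1400 UMIs, 62.1% of control and 38.1% of fibrosis cells held 3 or more Car4 UMIs.

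**Figure D1:**
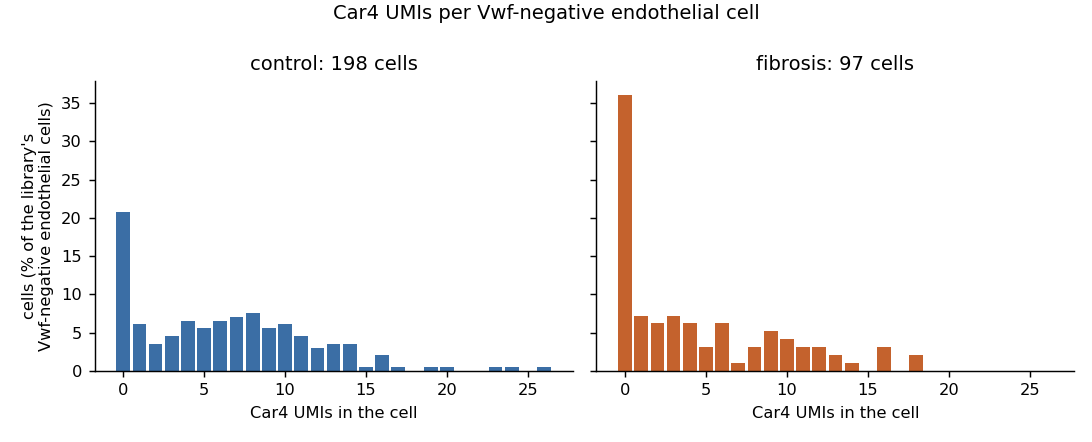
Car4 UMIs per Vwf-negative endothelial cell (x axis) against the share of the library's 198 control or 97 fibrosis cells in percent (y axis), 1 bar per UMI number. The bar at 0 holds 41 control and 35 fibrosis cells, and the positive cells spread up to 26 and 18 UMIs.

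Vwf-negative cells made up 198 of the 259 blood endothelial cells of the control library (76.5%, 70.8 to 81.5) and 97 of the 168 of the fibrosis library (57.7%, 49.9 to 65.3). Of all kept cells they were 2.47% (2.14 to 2.83) and 1.40% (1.13 to 1.70). In screened cells Vwf-negative cells were 155 of 196 (79.1%) and 64 of 118 (54.2%). Vwf-positive cells were the deeper ones, by the medians above, and with every cell thinned to 1400 UMIs before the rule was applied the Vwf-negative shares were 79.6% (230 of 289) and 63.8% (127 of 199).

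Ednrb, Apln and Tbx2 were counted almost only in the Car4-positive cells. Ednrb, the endothelin receptor type B, had UMIs in 131 of 157 Car4-positive control cells (83.4%) and 0 of 41 Car4-negative ones, and in 50 of 62 and 0 of 35 fibrosis cells, against 0.874% and 0.980% of B cells. No Vwf-negative cell of either library had Ednrb without Car4, while 26 control and 12 fibrosis cells had Car4 without Ednrb. The sums were 393 against 0 UMIs (1064 against 0 CPM) in control and 154 against 0 (840 against 0 CPM) in fibrosis. Against a floor of 3 counts over the Car4-negative side, Ednrb was at least 34.8-fold higher in control and at least 40.4-fold higher in fibrosis.

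Apln, the gene of the secreted peptide apelin, followed the same side. It had 137 against 2 UMIs in control (371 against 20.4 CPM, log2 ratio 3.87, 2.30 to 7.24) and 59 against 0 in fibrosis, at least 15.5-fold higher. Aplnr, its receptor, was sparse and leaned the other way, with UMIs in 2 of 157 against 5 of 41 control cells and 3 of 62 against 8 of 35 fibrosis cells. No cell of either library had both Apln and Aplnr, while 83 control and 31 fibrosis cells had only the ligand and 7 and 11 only the receptor. Ligand and receptor were thus not counted in the same cell. With the receptor in so few cells an overlap of 0 says little, and its counts were too few for the comparison of single genes. Edn1, the ligand of Ednrb, had 32 against 69 UMIs in control (log2 ratio -3.01, -3.68 to -2.40) and 2 against 25 in fibrosis, below the 30 UMIs over both sides that a gene needed to be compared.

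Tbx2, a T-box transcription factor, had 193 against 1 UMIs in control (523 against 10.2 CPM, log2 ratio 5.10, 3.18 to 10.99) and 66 against 4 in fibrosis (360 against 27.7 CPM, 3.54, 2.27 to 5.62). Its paralog Tbx3 had 351 against 16 UMIs (2.50) and 166 against 16 (2.99). Fibin, a gene of a secreted protein first described in fin bud formation, had 476 against 0 UMIs in control, at least 42.1-fold higher, and 211 against 5 in fibrosis (log2 ratio 4.92, 3.81 to 6.69). Both T-box genes and Fibin were higher in the Car4-positive cells of both libraries by more than the counting error.

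The VEGF receptors divided. Kdr had 785 against 20 UMIs in control (2126 against 204 CPM, log2 ratio 3.35, 2.74 to 4.10) and 397 against 21 in fibrosis (2167 against 146 CPM, 3.86, 3.26 to 4.60). Nrp1, a VEGF co-receptor, was higher by 2.62 and 2.73 on the log2 scale. Flt1, the decoy-like second receptor, differed by only 0.36 and 0.33, and it turned to -0.51 and -0.37 in screened cells. The receptor genes of the VEGF list that could be compared were these 3 of 10, and Kdr and Nrp1 passed 2-fold in both libraries.

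Genes of other functions showed large ratios on the same side. Igfbp7, an insulin-like growth factor binding protein, had 1522 against 6 UMIs in control (4122 against 61.3 CPM, log2 ratio 5.96, 4.95 to 7.52) and 512 against 48 in fibrosis (2794 against 333 CPM, 3.06, 2.64 to 3.53). Emp2, a tetraspan membrane protein, had 1114 against 14 (4.35) and 464 against 15 (4.56). Igfbp7 was the gene whose ratio lay furthest apart between the libraries among these, and the deep fibrosis cell with mesothelial genes stood on its Car4-negative side. In screened cells Igfbp7 differed by 5.62 and 3.73 and Emp2 by 4.26 and 3.97. Chst1, a sulfotransferase, had 176 against 1 UMIs and 49 against 1, Rprml had 104 against 0 and 30 against 0, and Enho, the gene of the peptide adropin, had 125 against 0 and 52 against 1. Sept4, a septin, was higher by 3.90 and 3.48 and Pmp22, a membrane protein of the Emp2 family, by 4.75 and 3.27.

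Across all genes compared, the Car4 split shifted counts widely. In control 547 of 2756 genes were at least 2-fold higher in Car4-positive cells (19.8%) and 177 at least 2-fold lower (6.42%). In fibrosis 300 of 1935 were higher (15.5%) and 153 lower (7.91%). The median of all genes was itself above 0, at 0.27 in control and 0.11 in fibrosis. Past 2-fold in both libraries were 169 of 1824 genes higher (9.27%) and 36 lower (1.97%). In screened cells these were 96 of 984 higher (9.76%) and 42 lower (4.27%).

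Of the Car4 capillary list, 16 genes written from knowledge of aerocytes and with earlier results of these data known, all 16 compared in control were at least 2-fold higher, with a median log2 ratio of 4.14. In fibrosis 14 of 15 compared were, with a median of 3.66. With the 3 genes at 0 on the Car4-negative side set to their lower bounds, the medians were 3.90 and 3.54. In screened cells all 16 and all 14 compared genes were past 2-fold, with medians of 3.79 and 3.85, or 3.25 and 3.05 at the bounds. The exception in fibrosis was Clu, the gene of the secreted chaperone clusterin, at 291 against 11 UMIs in control (2.75) and 73 against 82 in fibrosis (-0.51), which stood at 2.59 and 1.02 in screened cells. Many of these genes were counted on both sides at unequal levels: of the 21 screened Car4-negative fibrosis cells, 17 had a UMI of Nrp1, 11 of Clu, 10 of Igfbp7 and 9 each of Emp2 and Cyp4b1, and of the 18 in control 10, 4, 3, 5 and 8. Periaxin (Prx), the cytochrome Cyp4b1 and the Kit ligand Kitl were higher by 3.53, 2.94 and 3.02 in control and by 2.75, 3.66 and 2.44 in fibrosis.

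**Figure D2:**
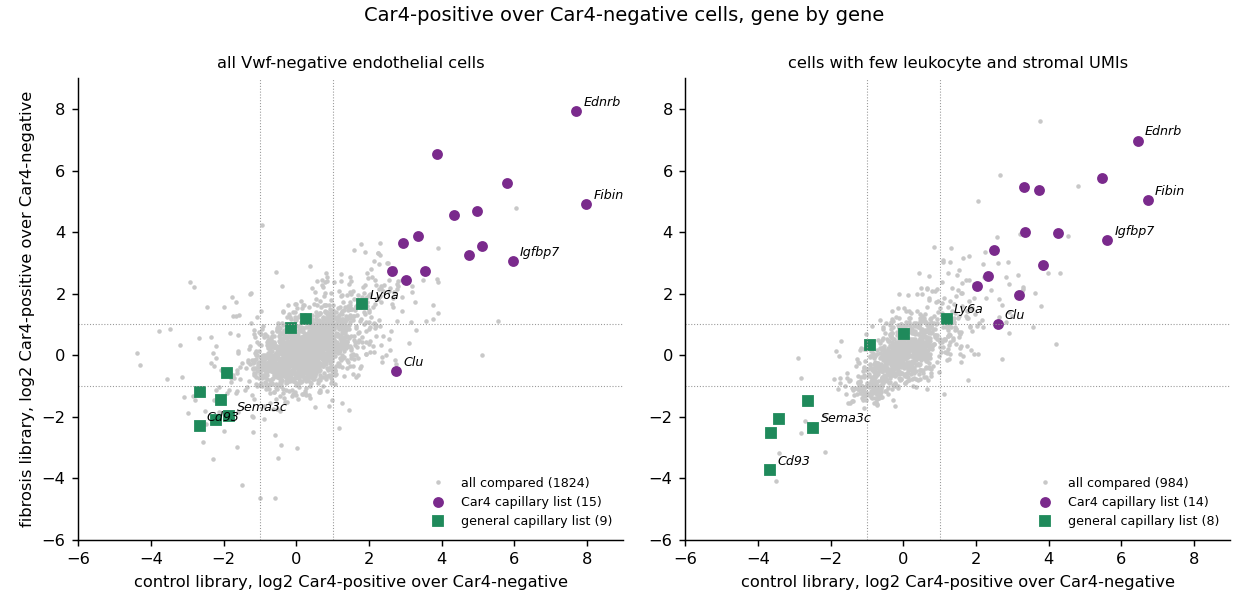
Each point is a gene with at least 30 UMIs in both libraries, with its log2 ratio of Car4-positive over Car4-negative cells in the control (x axis) and fibrosis library (y axis), for all 295 cells on the left and screened cells on the right; dotted lines mark 2-fold and 0.5 UMI was added to each sum, so that a gene with 0 UMIs on a side has no upper limit. The Car4 capillary list (purple circles) lies to the upper right except for Clu on the left, and Cd93 and Sema3c of the general capillary list (green squares) lie to the lower left in both.

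Plvap, Gpihbp1 and Cd93 of the general capillary genes stood at higher levels in Car4-negative cells, Gpihbp1 by less than 2-fold in fibrosis. Plvap, the gene of the diaphragm protein of endothelial pores, had 39 against 65 UMIs in control (106 against 664 CPM, log2 ratio -2.64, -3.26 to -2.06) and 30 against 54 in fibrosis (164 against 375 CPM, -1.18, -1.89 to -0.52). It was present in 13 of 157 against 23 of 41 control cells (8.28% against 56.1%) and 11 of 62 against 24 of 35 fibrosis cells (17.7% against 68.6%). Gpihbp1, which anchors lipoprotein lipase to capillaries, had 78 against 78 UMIs in control (211 against 796 CPM, -1.91, -2.39 to -1.44) and 72 against 85 in fibrosis (393 against 590 CPM, -0.58, -1.06 to -0.12). In screened cells the Gpihbp1 ratios were -2.63 and -1.50. These genes were not particular to Car4-negative cells. Vwf-positive cells had a Plvap UMI in 45 of 61 control and 61 of 71 fibrosis cells (73.8% and 85.9%). Gpihbp1 was present in 34 of 61 and 39 of 71 of them (55.7% and 54.9%), against 24 of 41 and 23 of 35 Car4-negative cells. Cd93, a receptor of the endothelial surface, had 39 against 66 UMIs (-2.67) and 28 against 111 (-2.31).

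Other genes were lower in Car4-positive cells as well. Cxcl12, a chemokine that is also on the arterial list, had 20 against 32 UMIs in control (54.2 against 327 CPM, log2 ratio -2.58, -3.48 to -1.74) and 11 against 63 in fibrosis (60.03 against 437 CPM, -2.81, -3.94 to -1.93). Gja4 of that list was present in 6 of 137 against 7 of 18 screened control cells and 3 of 43 against 10 of 21 in fibrosis. Dll4 went the other way, with 23 of 137 against 2 of 18 and 12 of 43 against 3 of 21. Ptprb, the endothelial receptor phosphatase that acts on Tie2, had 58 against 133 UMIs (157 against 1358 CPM) and 59 against 119 (322 against 825 CPM), ratios of -3.10 and -1.35. Tek, which encodes Tie2, was lower by the log2 ratios -2.09 and -1.46. Sema3c, a semaphorin, stood at -1.85 and -1.98, Lpl at -2.22 and -2.12 and Tm4sf1 at -2.004 and -2.46. Sparc, a matrix protein, stood at -2.31 and -3.36, and the matrix gene Hmcn1 at -2.99 and -1.88. In screened cells Cd93, Cxcl12, Sparc and Ptprb led the lower genes, at -3.68, -3.52, -3.42 and -3.75 in control and -3.75, -4.09, -3.17 and -2.58 in fibrosis. Slpi, Emp3, Fabp5, Ifi27l2a and Mt1 were also among the first 12 lower genes over all cells, and none of them was among the first 15 in screened cells.

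Of the 12 general capillary genes, 9 were compared in control, with 6 at least 2-fold lower in Car4-positive cells, 1 higher and a median of -1.91. In fibrosis 10 were compared, with 6 lower, 2 higher and a median of -1.32. Screened cells gave 6 of 9 lower with a median of -2.63 and 5 of 8 lower with a median of -1.78. The member on the other side in all 4 was Ly6a, the gene of the surface protein Sca-1, at 2321 against 175 UMIs in control (1.81) and 797 against 198 in fibrosis (1.66). Ly6a is abundant in many cells, and 44.3% of control and 37.8% of fibrosis B cells had a UMI of it. Kit had 11 against 15 UMIs in control, too few to compare, and 10 against 34 in fibrosis (-2.06).

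Summed levels differed between classes of cells with more and fewer Car4 UMIs. In control, Ednrb stood at 0 CPM in cells with no Car4 UMI, 460 with 1 or 2, 1021 with 3 to 9 and 1340 with 10 or more, and in fibrosis at 0, 372, 916 and 1078. Igfbp7 went from 61.3 over 1334 and 4133 to 5061 CPM in control and from 333 over 520 and 3072 to 4113 in fibrosis. Plvap went the other way, with 664, 598, 55.3 and 15.8 CPM in control and 375, 520, 53.9 and 79.9 in fibrosis. Cells with 1 or 2 Car4 UMIs, 19 in control and 13 in fibrosis, thus held, as a sum, Plvap near the level of Car4-negative cells and Ednrb below that of cells with more Car4. This class was mixed: 12 of the 19 and 6 of the 13 cells had sums of Car4 capillary genes within the range of Car4-negative cells, as given below. The others stood above that range, so the summed levels do not show a gradient from cell to cell. Gpihbp1 was at 796, 667, 151 and 150 CPM in control, and at 590, 768, 237 and 379 in fibrosis. Cxcl12 was at 327, 345, 25.1 and 0 CPM in control and 437, 99.1, 43.1 and 59.9 in fibrosis. A UMI or 2 of Car4 was also found in B cells, as given above, and the part of free RNA in the cells with 1 or 2 UMIs was not tested.

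**Figure D3:**
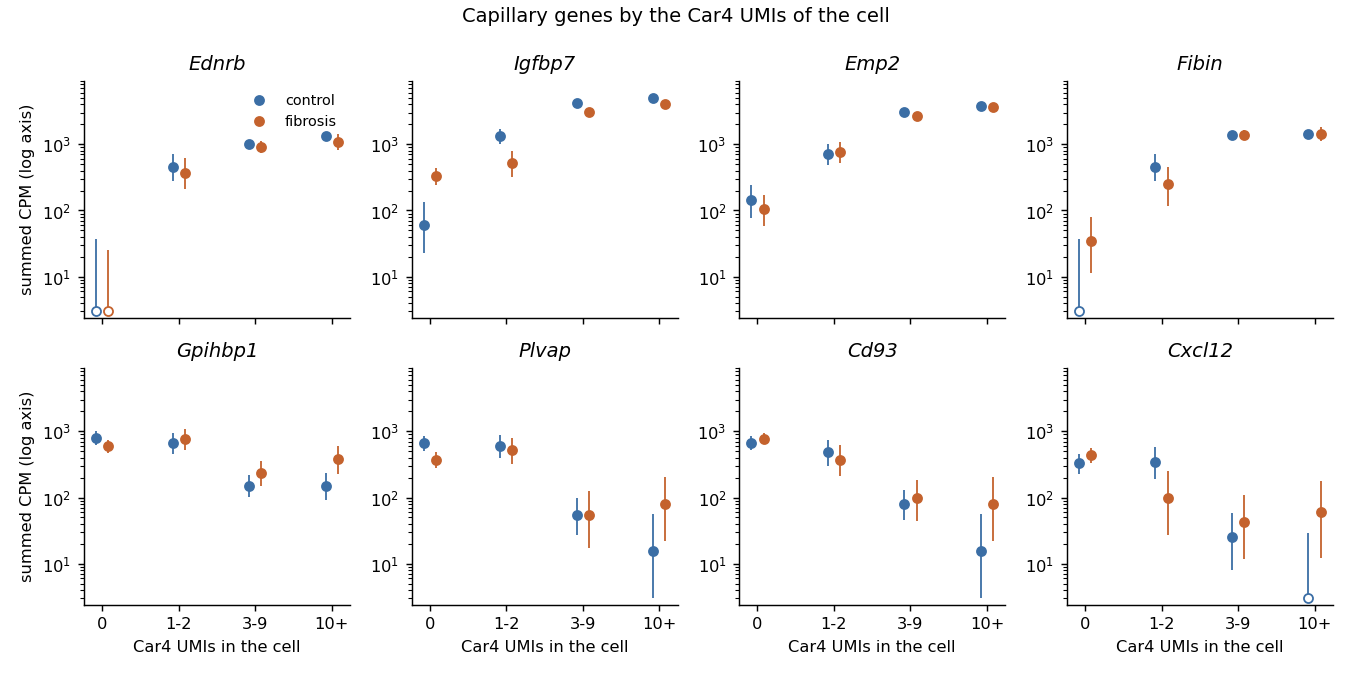
Summed CPM (log axis) of 8 genes in Vwf-negative endothelial cells with 0, 1 to 2, 3 to 9 and 10 or more Car4 UMIs (x axis), control in blue and fibrosis in orange, with exact Poisson 95% intervals; open points at the foot of the axis are sums of 0 UMIs. The upper 4 genes go up from the cells without Car4 to those with 3 or more UMIs, and Plvap, Cd93 and Cxcl12 go down.

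Single cells were also described by the sum of 14 Car4 capillary genes (the list without Kdr and Nrp1), given as UMIs per 10000. Car4-positive control cells had a median of 209, with quartiles at 162 and 244 and a range of 6.85 to 336, and Car4-negative control cells a median of 8.12 and a range of 0 to 47.5. In fibrosis the medians were 167 and 10.3, with ranges of 3.75 to 316 and 0 to 32.8. Only 15 of 157 control and 10 of 62 fibrosis Car4-positive cells stood at or below the highest Car4-negative cell of their library, and 12 and 6 of these had 1 or 2 Car4 UMIs. In screened cells they were 9 of 137 and 3 of 43, with median sums of the general capillary genes of 115 and 113, as high as in screened Car4-negative cells (113 and 85.3) and above screened Car4-positive cells as a whole (89.5 and 65.7). Over all cells the median sum of the general capillary genes was 82.7 in Car4-positive and 64.8 in Car4-negative control cells, and 59.0 and 77.5 in fibrosis, so that in control its direction differed from that of the screened cells. Ly6a, the abundant exception above, is 1 of the 10 genes summed. Ednrb and Gpihbp1 were counted together in 21 control and 12 fibrosis cells, Ednrb alone in 110 and 38, Gpihbp1 alone in 36 and 30, and neither in 31 and 17.

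**Figure D4:**
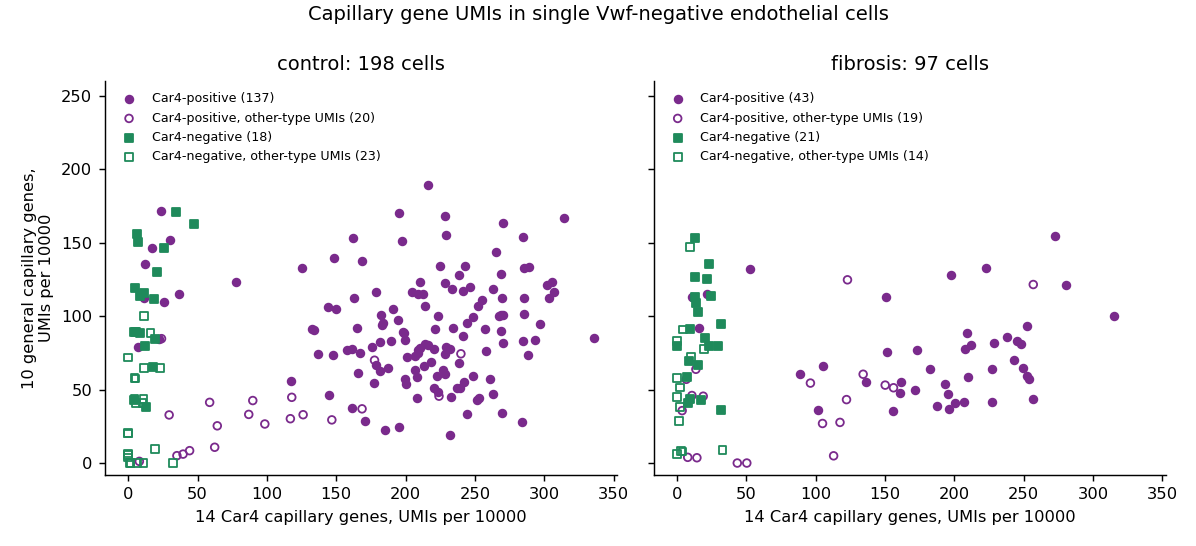
Each point is 1 Vwf-negative endothelial cell, with its UMIs of 14 Car4 capillary genes (x axis) and 10 general capillary genes (y axis) per 10000 UMIs, Car4-positive cells as purple circles and Car4-negative cells as green squares; open symbols had more than 2 UMIs of the leukocyte or stromal genes. Car4-negative cells stay at or below 47.5 (control) and 32.8 (fibrosis) on the x axis, while most Car4-positive cells lie to their right.

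Counts of other endothelial pathways are to be read against the shares of all genes past 2-fold with Car4 given above, 19.8% higher and 6.42% lower in control and 15.5% and 7.91% in fibrosis. Among the junction genes, 7 of 10 compared in control and 2 of 8 in fibrosis were at least 2-fold higher in Car4-positive cells, but in screened cells this was 1 of 10 and 2 of 8. The other counts and ratios of this paragraph are over all cells only. Of the Car4-negative cells among them, 23 of 41 in control and 14 of 35 in fibrosis were over the leukocyte limit. Of the caveola genes 2 of 7 and 0 of 7 were past 2-fold, with medians of 0.64 and 0.25. Of the Notch genes compared, 0 of 5 and 0 of 3 were past 2-fold, with medians of 0.19 and 0.57. Of the BMP and TGF-beta genes 2 of 12 and 5 of 11 were higher and 1 and 0 lower, Acvrl1, a BMP9 receptor, standing at 1.16 and 1.52. Of the lipid handling genes 3 of 7 were lower and 1 higher in each library, with medians of -0.73 and -0.92. Of the basement membrane genes 4 of 6 were higher and 1 lower in control, and 1 of 6 higher and 2 lower in fibrosis. Cell-cycle genes were too sparse in both libraries, with 2 of 15 reaching 30 UMIs.

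Of 18 endothelial transcription factors compared in control 3 were at least 2-fold higher and 2 lower, and of 16 in fibrosis 5 and 2, in control near the shares of all genes. Besides Tbx2 and Tbx3, Foxf1, a forkhead factor of the lung capillary bed, was higher at 1.53 and 1.50. Foxp1 was lower at -1.64 and -1.16, and Sox17, an arterial factor, at -1.67 and -1.22. Of the adhesion genes for leukocytes 3 of 5 compared in each library were past 2-fold higher: Icam2 at 2.24 and 1.82, Icam1 at 1.87 and 2.02 and the chemokine Cx3cl1 at 1.22 and 2.63. These factor and adhesion values are over all cells, and those of screened cells are not given here.

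Genes known from alveolar type 1 epithelial cells also differed. Hopx had 122 against 5 UMIs in control (2.56) and 37 against 6 in fibrosis (2.18). Clic5, a chloride channel protein of flat cells, had 331 against 37 (1.23) and 167 against 34 (1.93). In screened cells Hopx had 116 against 3 UMIs in control and 32 against 0 in fibrosis. Emp2 is expressed by type 1 cells too. The part of type 1 cell RNA in these ratios was not tested.

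Neutrophil, airway and surfactant transcripts were present in the selected cells. Summed levels of the 4 neutrophil genes were 11394 CPM in control and 5506 CPM in fibrosis, and up to 45.0% of the UMIs of single control cells. Car4-negative control cells stood at 41599 CPM. The 10 alveolar type 2 genes summed to 2923 and 2608 CPM and the airway genes to 7920 and 17518 CPM. Mesothelial genes summed to 14.9 CPM in control and 1037 CPM in fibrosis and fibroblast genes to 47.0 and 1486 CPM, and the single fibrosis cell with 37762 UMIs held 337 of the 340 mesothelial and 454 of the 487 fibroblast UMIs of its library's set. Without it they stood at 10.3 and 114 CPM. By contrast the 5 erythroid genes were at 12.8 and 0 CPM. The screened cells were not chosen on neutrophil, airway, type 2 or erythroid genes. Leaving out the cells with genes of other cell types, neutrophil and erythroid genes not among them, kept 84 control and 21 fibrosis cells. Of the 276 genes then compared, 31 were higher and 21 lower with Car4 in both libraries. The part of neutrophil RNA in the ratios was not tested.

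Car4 itself ran with a small set of genes from cell to cell. Over the 198 control and 97 fibrosis cells, each thinned to 1400 UMIs, the ranks of 3549 genes were compared with that of Car4 as a description. The cells share library and depth, and they are the cells that were split on Car4 above. Ranked by the lower value of both libraries, Igfbp7 was most like it (Spearman's rho 0.71 in control and 0.74 in fibrosis), followed by Ly6c1 (0.64 and 0.72), Emp2 (0.64 and 0.77), Pmp22 (0.60 and 0.61) and AW112010 (0.54 and 0.73). Cd34 (0.55 and 0.53), Kdr (0.53 and 0.66) and Nrp1 (0.52 and 0.74) completed the first 8. Least like it were Ptprb (-0.55 and -0.58), Cd93 (-0.54 and -0.61), Tmsb4x (-0.51 and -0.53) and Ifitm3 (-0.49 and -0.51).

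Against Vwf-positive endothelial cells, 61 in control and 71 in fibrosis, the Vwf-negative cells were higher in Car4 capillary genes and lower in genes of larger vessels. Of 3235 genes compared in both libraries, 155 were at least 2-fold higher in Vwf-negative cells in both (4.79%) and 127 lower (3.93%). Car4 had 1243 against 12 UMIs in control (log2 ratio 5.35, 4.60 to 6.36) and 424 against 9 in fibrosis (5.46, 4.60 to 6.68). Apln had 139 against 0 and 59 against 0, at least 19.0-fold and 19.4-fold higher. Tbx2 had 194 against 0, at least 26.5-fold higher, and 70 against 1. Ednrb had 393 against 14 UMIs (3.47) and 154 against 8 (4.17). All 16 Car4 capillary genes compared in control and 15 of 16 in fibrosis were higher, with medians of 3.51 and 3.69 (3.51 and 3.26 at the bounds of genes at 0). Among screened cells 162 of 2160 genes were higher (7.5%) and 80 lower (3.7%) in both libraries, Car4 stood at 5.28 and 5.96, and 16 of 16 and 13 of 14 Car4 capillary genes were higher (medians 3.77 and 4.23, or 3.59 and 3.97 at the bounds).

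Genes of arteries and veins were counted mostly in the Vwf-positive cells. Gja5, an arterial gap junction gene, had 2 against 62 UMIs in control (-5.93) and 0 against 62 in fibrosis, at least 20.9-fold lower. Slc6a2, the noradrenaline transporter found in lung veins, had 2 against 122 (-6.90) and 0 against 320, at least 108-fold lower. Rbp7, a retinol-binding protein, had 0 against 71 and 0 against 70, at least 57.8-fold and 23.6-fold lower. Cytl1 had 3 against 101 UMIs (-6.15, -8.66 to -4.77) and 1 against 277 (-7.55, -13.44 to -5.64), and the adhesion receptor Adgrg6 had 4 against 70 and 0 against 128. Of the arterial list 10 of 11 and 11 of 14 compared genes were at least 2-fold lower in Vwf-negative cells, and of the venous list 5 of 5 and 8 of 8. In screened cells these were 7 of 8 and 6 of 11, and 4 of 4 and 7 of 7. Of the general capillary list 3 of 10 were lower and 1 higher in control (median -0.40), and 3 of 11 lower and 3 higher in fibrosis (median 0.65). The list counts of this comparison, those of the Car4 capillary genes included, are within each library. The shares of all genes given for it are of genes past 2-fold in both libraries, a stricter measure. The list counts can therefore not be read against those shares. Plvap was lower in Vwf-negative cells at -2.33 and -2.02 and Cd93 at -2.03 and -1.03, with -2.27 and -1.75 and -2.44 and -0.73 in screened cells. Gpihbp1 stood at -0.18 (-0.59 to 0.25) and 0.66 (0.29 to 1.04), and at -0.53 and 1.38 in screened cells.

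Between the fibrosis and control libraries, the leading genes over all Vwf-negative cells included many of other cell types. Of 4281 genes compared, 186 were at least 2-fold higher in fibrosis (4.34%) and 159 lower (3.71%). After the mean ratio of B and T cells was subtracted the split was 93 and 235 of 3713 genes, those also compared in B and T cells. The leading higher genes were Col3a1, Slurp1, Gpc3, Igfbp5, Msln, Nkain4, Lrrn4 and Dcn, and the cell with 37762 UMIs held nearly all of their UMIs, such as 168 of 169 for Col3a1, 155 of 155 for Msln, 46 of 46 for Lrrn4 and 228 of 228 for Dcn. Without the cells above 10000 UMIs no gene of the mesothelial or fibroblast list reached 30 UMIs. The leading lower genes were Stfa2l1, Ms4a6c, Ccl5, Pf4, C1qa, C1qc, Gzma and Retnlg, which are genes of neutrophils, macrophages, lymphocytes and platelets. Without the cells above 10000 UMIs 112 of 4011 genes were higher and 119 lower, and in screened cells 75 of 2967 genes were higher (2.53%) and 96 lower (3.24%).

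Screened Car4-positive cells, 137 in control and 43 in fibrosis, were compared between the libraries in the same way. Of 2463 genes compared, 54 were at least 2-fold higher in fibrosis (2.19%) and 77 lower (3.13%), with a median over all genes of 0.02. Several aerocyte genes stood close to even, while Clu and Igfbp7 of the same list were lower in fibrosis, as given below. Car4 itself, which set the split, was lower in fibrosis over all Car4-positive cells, as given above. Ednrb had 352 UMIs in control and 125 in fibrosis (log2 ratio -0.12, -0.43 to 0.18), Kdr 699 and 274 (0.03, -0.18 to 0.23) and Apln 121 and 44 (-0.07, -0.62 to 0.42). Emp2 stood at 0.01 (-0.16 to 0.18) and Tbx2 at -0.35 (-0.83 to 0.09). Of the 16 Car4 capillary genes none was 2-fold higher and 1 was 2-fold lower, with a median of -0.14. The lower one was Sirpa, an inhibitory receptor, on 70 and 13 UMIs (-1.01). None of the 25 other endothelial genes, 7 general capillary genes or 10 junction genes compared was past 2-fold. The spread between mice around these values is unknown with 1 mouse each.

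Of the genes past 2-fold in these cells, some are given beside the same ratio in other cells. H2-Q6, a class I histocompatibility gene, had 15 UMIs in control and 22 in fibrosis (52.5 and 200 CPM, log2 ratio 1.91, 0.91 to 2.98), against a mean of 0.41 in B and T cells and 1.13 in Vwf-positive cells. H2-Q genes are near-identical copies, so that reads may have been divided among them. Of the 11 class I genes compared 1 was 2-fold higher and 1 lower, H2-T23 at -1.25 on 58 and 9 UMIs, and B2m, the shared light chain, stood at 0.35 (0.21 to 0.49). Lyve1, a hyaluronan receptor better known from lymphatic vessels, had 38 and 43 UMIs (133 and 390 CPM, 1.55, 0.89 to 2.22), and its ratio was as large in B and T cells (1.83), while Vwf-positive cells stood at -0.23.

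On the lower side, Clu had 267 and 58 UMIs in screened Car4-positive cells of control and fibrosis (935 and 526 CPM, log2 ratio -0.82, -1.26 to -0.41), while B and T cells stood at 1.48 and Vwf-positive cells at 0.62. Adamtsl5, a secreted matrix-associated protein, had 55 and 6 UMIs (-1.72), with 0.30 in B and T cells and -1.49 in Vwf-positive cells. Hspb1, a small heat-shock protein, had 536 and 128 UMIs (-0.69, -0.98 to -0.41), and Ly6a 2152 and 627 (-0.40, -0.54 to -0.28), where B and T cells stood at -0.97. Igfbp7 was lower by a small step, at -0.29 (-0.45 to -0.13). Nsun6 and Cmtm3 had the lowest ratios, on 29 and 2 and on 37 and 3 UMIs.

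Some ratios between the libraries were shared with unrelated cells. AY036118 (3.43), Gstp1 (3.10) and Scd1 (1.80) were among the higher genes in screened Car4-positive cells that B and T cells shared, at means of 3.99, 2.59 and 1.77. Of 2112 genes compared in all 3 cell types, 116 were past 2-fold in the Car4-positive cells. For 17 of these the mean of B and T cells was past 2-fold the same way. How many of all 2112 genes passed 2-fold in that mean was not counted, so the 17 cannot be read as many or few. H2-Q6, Gadd45g (1.51, against 0.09) and Ahnak (1.62, against 0.28) were among the higher genes whose mean in B and T cells was not past 2-fold.

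**Figure D5:**
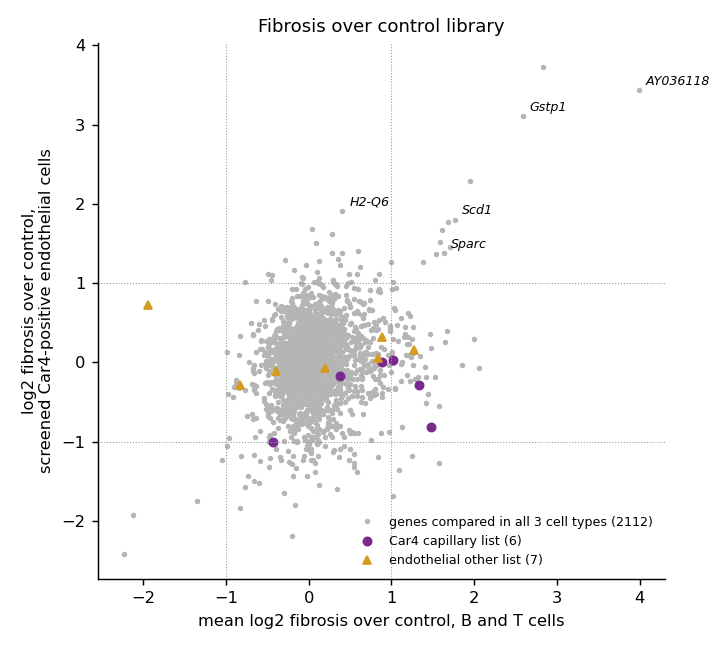
Each point is 1 of 2112 genes, with the mean log2 ratio of fibrosis over control in B and T cells (x axis) and the log2 ratio in screened Car4-positive endothelial cells (y axis); dotted lines mark 2-fold. AY036118 and Gstp1 are high on both axes, H2-Q6 is high only on the y axis, and the 6 genes of the Car4 capillary list (purple circles) that could be compared in all 3 cell types lie between 0.03 and -1.01 on the y axis.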

How the data were processed

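The authors deposited, per library, raw counts of UMIs per gene and cell, without normalisation. Per the submitters' processing notes, bcl2fastq, Cell Ranger 1.3 and the mm10 build were used; the annotation release is not given in the sources used here. Gene positions come from GENCODE M21, which lists 27645 of the 27998 gene identifiers (98.7%).

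Cells were selected by the rule given in the results. B and T cells, used as background, had UMIs of at least 2 genes of a B cell panel that included Cd79a, Cd79b and Ms4a1, or of Cd3d, Cd3e and Cd3g. Cells with UMIs of both panels were left out, as were cells with 2 or more of the 7 endothelial genes. The background shares are thus those of cells chosen for little endothelial RNA. UMIs of each set were summed per library and scaled to 1000000 (CPM), with exact Poisson 95% intervals. Log2 ratios had 0.5 UMI added to each sum and exact binomial intervals, shares had Clopper-Pearson intervals, and a count of 0 was given a limit of 3 counts over the set. PCR and capture are not covered by these intervals. A gene was compared at 30 or more UMIs over both sides, and past the fold means at least 2-fold. Car4 or Vwf was left out of the totals of its own contrast. With 1 mouse per group no test and no p-value was computed. Doublets were not removed in the main analysis, and removal with the scrublet routine of scanpy 1.11.5 was an alternative.

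The members, the 40 gene lists and the rules were chosen with earlier results of these data known. Genes were named by rank: the first 12 in each direction past 2-fold in both libraries for Car4, the first 6 for Vwf and the first 10 between the libraries, besides genes of the lists. The screened cells, and their rankings, were chosen after the data had been seen. Of the list symbols, 4 were not matched. A few results are not reported here.

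The ratio script was tested on simulated data for the Car4 contrast. Python 3.11.15, numpy 2.4.6, scipy 1.17.1, pandas 2.3.3 and matplotlib 3.10.9 were used. Alternatives were a lower mitochondrial limit, at least 4 endothelial genes, at most 1 Vwf UMI, thinning, 1 UMI floor for both libraries, other-cell genes left out, Car4 from 2 UMIs, other minimum counts, per-cell means and centring.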

Additional observations from a re-analysis of the deposited data

Results flagged for a closer look

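In 16 of the 1824 genes compared in both libraries, the Car4-positive cells were at least 2-fold higher than the Car4-negative cells in 1 library and at least 2-fold lower in the other. Of these, 6 belong to the gene lists. The difference between the libraries was not tested.

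Class II antigen presentation genes and a B cell gene were among them. The log2 ratio of Car4-positive over Car4-negative cells was -1.76 in control and 1.89 in fibrosis for Cd74, the invariant chain, -1.26 and 2.02 for H2-Aa, and -1.27 and 2.00 for H2-Ab1. Cd79a, a B cell receptor gene, stood at -2.81 and 2.22, the widest gap of the 6. Among screened cells Cd79a had 4 UMIs in control and 0 in fibrosis, too few to compare. Cd79a is 1 of the 19 leukocyte genes of the screen, so its low counts there were set by the screen. H2-Aa and H2-Ab1 were also too few to compare, and Cd74 stood at -1.55 and -0.74, lower on the Car4-positive side in both.

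Apoe, a lipid carrier abundant in macrophages, stood at 1.46 in control and -1.77 in fibrosis. Id2, a target of BMP signals, stood at -1.66 in control and 1.27 in fibrosis, and at -2.18 in screened control cells.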

How the results depend on the processing

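No paired analysis was possible, since each group held 1 mouse and the labels name no pairing of mice between the groups. Of 186 values recomputed under an alternative, 140 stayed within a tolerance, 46 moved beyond it and 0 reversed. Only a list's median could be marked as reversed, since a share or a number of genes has no sign. The same UMI floor of 1915 left out no fibrosis cell, and no Vwf-negative control cell held more than 10000 UMIs. Values of those cells alone could therefore not move under these settings. The tolerance was the exact 95% interval for a share, 150% between the smaller and the larger count, and for a list's median the median over its genes of the narrower arm of their 95% intervals, which is wide for sparse genes. The number of genes compared changed with the setting. In the main analysis it was 1824 with Car4 and 4281 between the libraries. With cells carrying other-cell genes left out, 84 control and 21 fibrosis cells remained. Of 276 genes then compared, 31 were past 2-fold higher and 21 lower with Car4 in both libraries. Between the libraries these were 46 and 69 of 1316. The fibrosis shares were 52.4% (Car4) and 43.8% (Vwf-negative) and the fibrosis general capillary median was -0.11. In screened cells 96 of 984 genes were higher with Car4, and 75 and 96 of 2967 passed 2-fold between the libraries. In screened Car4-positive cells alone the latter were 54 and 77 of 2463. The control Car4 share was 88.4% in screened cells and the control general capillary median -2.63. A minimum of 15 UMIs gave 272 and 88 of 3489 genes with Car4 and 477 and 359 of 6698 between the libraries. A minimum of 60 gave 84 and 14 of 828 with Car4 and 67 and 60 of 2328 between the libraries. Thinning before the rule gave 77 of 2445 genes lower with Car4, a fibrosis Car4 share of 52.0% and a fibrosis general capillary median of -2.10. This median was also -2.10 from per-cell means and -1.91 with Car4 counted from 2 UMIs. The same UMI floor gave 23 of 1608 genes lower with Car4, and at most 1 Vwf UMI a control Vwf-negative share of 81.9%. Between the libraries, at least 4 endothelial genes gave 110 of 3982 genes higher. Leaving out cells above 10000 UMIs gave 112 of 4011, and subtracting B and T cells gave 93 of 3713. The cause of these moves was not tested. The Car4 capillary medians stayed positive under each alternative, between 3.47 and 4.78 in control and 3.28 and 4.23 in fibrosis. The 127 of 3235 genes lower in Vwf-negative cells became 80 of 2160 in screened cells. The 41 and 35 Car4-negative cells limit the precision of the Car4 ratios.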
